A study of Mus musculus with 4 samples.

Results

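The genes described here act in meiotic recombination and in synapsis, the pairing of homologous chromosomes along their length in spermatocytes. They were taken from a list of 38 symbols, and all 38 were rows of at least 1 of the 4 count tables, which together name 25824 symbols. A gene with no count in a library has no row there, and 31 of the 38 had a row in every table. The counts came from 3′ single cell libraries of testis cells, 1 library per mouse. There were 2 WT mice (Ctcf wt/wt by the labels) and 2 Ctcf-cKO mice (Stra8-iCre-Ctcf f/Δ), all of strain C56BL/6J as spelled there and 15 weeks old. In the Ctcf-cKO mice 1 Ctcf allele is deleted and the floxed one is the target of a Cre recombinase driven by the promoter of Stra8, which is itself among the genes described. The mice are numbered WT 1 and 2 and Ctcf-cKO 1 and 3, as in the labels, and values are given in that order. By the study's methods, the Ctcf-cKO cell suspension was combined from more than 1 tube before capture.

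In meiotic prophase a chromosome axis forms along each pair of sister chromatids, programmed breaks are made in the DNA, and their repair on the homologous chromosome brings the homologs together. The synaptonemal complex then joins the axes, with transverse filaments between lateral and central elements, while telomeres tethered to the nuclear envelope move the chromosomes. A few of the repaired breaks become crossovers, which hold homologs together until they separate. In the testis these genes are known mainly from cells between meiotic entry and pachytene.

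The libraries held 6701235, 4859455, 2652665 and 1593546 counts, so that both Ctcf-cKO libraries were shallower than both WT libraries. Of the barcodes, 96, 241, 228 and 246 were kept as cells (811 in all), with median totals of 15357, 8251, 4668 and 2338 counts. Pairs of libraries shared 723 to 1310 barcode sequences, and among kept cells 1 barcode was shared by 1 pair. Between 84.4% and 90.3% of the non-zero entries were 1 to 4, and entries of 5 were far rarer than entries of 4 (3.54% against 29.97% in Ctcf-cKO 1). An entry of up to 4 may therefore stand for 1 molecule, so that small counts, and the floor of 3 counts used for a count of 0, may rest on fewer molecules than they show. The counts of CTCF, the targeted gene, were 110 and 49 in the WT libraries and 4 and 7 in the Ctcf-cKO libraries. Its log2 fold change was -2.19 (SE 0.67, edgeR adjusted p = 0.0292 over 14552 genes).

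Clustering, from which the 38 genes were left out, gave 11 clusters. A cluster of 57 cells (4, 31, 12 and 10 by mouse) had all 25 markers of a spermatocyte list higher than the other cells and is called the spermatocyte cluster. A cluster of 47 cells (8, 33, 5 and 1) had 18 of those 25 and 14 of 20 round spermatid markers higher, and is called the mixed cluster. Both together made the spermatocyte-like class that was tested (12, 64, 17 and 11 cells). A further 157 cells (8, 106, 33 and 10) were round spermatid-like, from 2 clusters that the mice filled unequally (0, 67, 24 and 8 cells in the one and 8, 39, 9 and 2 in the other). A cluster of 165 cells (38, 14, 54 and 59) had 13 of 15 elongating spermatid markers higher, but its leading gene was HBB-BS, a haemoglobin chain of red blood cells, and it is called the elongating-marker cluster. The somatic-like class of 169 cells (10, 6, 63 and 90) held cells with Leydig, macrophage or fibroblast markers, and 216 cells were left unnamed. Among the unnamed cells, a cluster of 105 (24, 10, 29 and 42) had 9 of 15 elongating spermatid markers higher.

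By its spermatocyte, Leydig and macrophage markers, the label of the spermatocyte cluster held less well in the Ctcf-cKO mice. Within it, 25, 25, 22 and 19 of the spermatocyte markers were detected, and their sum was 15986, 12068, 9613 and 7826 CPM (counts relative to the total of the cell group, scaled to the same total in every mouse). Leydig markers in the same cells were at 145 and 158 CPM in WT and at 8285 and 5260 CPM in Ctcf-cKO. Macrophage markers were at 0 and 170 CPM in WT and at 3075 and 1913 CPM in Ctcf-cKO. Spermatid markers did not divide by genotype. Elongating spermatid markers were at 2950, 75618, 64773 and 65632 CPM, and round spermatid markers at 523, 2839, 1871 and 2441 CPM. WT 1 was thus low in both, and WT 2 was the highest mouse. The part of these markers in the levels below was not tested.

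Promoter sequence is shown for the members that passed the test described further on and had an entry in the promoter table (RefSeq, GRCm38.p6), and for the other members that held a match to the CTCF core motif. That motif was searched on both strands from 250 bases before to 50 bases after each start. Sites of the MYB family (TAACNG, with N for any base) and the STRA8 site (CNCCTCAG) were searched in the same way. The sequences are the 250 bases before the start, 5′ to 3′ on the strand of the gene, and capitals mark matches.

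SYCP2 (chr2:178407659-178407908, minus strand): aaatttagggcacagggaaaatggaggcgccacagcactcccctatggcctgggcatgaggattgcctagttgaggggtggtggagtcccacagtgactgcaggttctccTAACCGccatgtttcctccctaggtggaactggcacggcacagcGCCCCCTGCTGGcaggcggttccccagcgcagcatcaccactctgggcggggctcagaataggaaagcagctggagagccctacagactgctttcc

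TERB1 (chr8:104509888-104510137, minus strand): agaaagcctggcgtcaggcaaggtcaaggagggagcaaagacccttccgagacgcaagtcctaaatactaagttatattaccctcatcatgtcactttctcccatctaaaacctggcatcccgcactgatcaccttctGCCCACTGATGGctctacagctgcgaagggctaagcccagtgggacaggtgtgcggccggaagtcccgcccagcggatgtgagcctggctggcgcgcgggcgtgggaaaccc

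DAZL (chr17:50293621-50293870, minus strand): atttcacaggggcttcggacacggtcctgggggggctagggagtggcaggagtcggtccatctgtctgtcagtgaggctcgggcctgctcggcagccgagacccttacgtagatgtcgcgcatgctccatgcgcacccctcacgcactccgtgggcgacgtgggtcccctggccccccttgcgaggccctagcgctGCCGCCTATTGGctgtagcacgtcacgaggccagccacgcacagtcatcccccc

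SYCP1 (chr3:102936101-102936350, minus strand): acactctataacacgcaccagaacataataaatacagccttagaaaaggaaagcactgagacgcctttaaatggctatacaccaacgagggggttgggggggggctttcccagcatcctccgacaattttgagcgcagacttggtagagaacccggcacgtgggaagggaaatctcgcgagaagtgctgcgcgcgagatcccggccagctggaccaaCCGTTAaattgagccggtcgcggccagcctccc

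SYCE1 (chr7:140787855-140788104, minus strand): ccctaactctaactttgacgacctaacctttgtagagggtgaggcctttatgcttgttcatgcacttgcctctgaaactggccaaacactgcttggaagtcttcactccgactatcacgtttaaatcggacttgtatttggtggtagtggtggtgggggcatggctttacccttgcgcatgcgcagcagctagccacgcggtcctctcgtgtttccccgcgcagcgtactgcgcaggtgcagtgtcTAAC

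SYCP3 (chr10:88459337-88459586, plus strand): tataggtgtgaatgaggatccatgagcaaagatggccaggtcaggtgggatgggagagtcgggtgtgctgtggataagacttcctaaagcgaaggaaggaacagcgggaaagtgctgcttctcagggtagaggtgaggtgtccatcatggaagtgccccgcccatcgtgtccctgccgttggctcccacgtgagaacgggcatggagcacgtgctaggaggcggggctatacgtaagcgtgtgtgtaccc

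HSF2BP (chr17:32034509-32034758, minus strand): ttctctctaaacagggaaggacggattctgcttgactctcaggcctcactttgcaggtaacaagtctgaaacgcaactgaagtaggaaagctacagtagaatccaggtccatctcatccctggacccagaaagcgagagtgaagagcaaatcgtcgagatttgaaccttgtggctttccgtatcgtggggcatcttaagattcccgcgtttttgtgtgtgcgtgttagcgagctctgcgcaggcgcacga

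SYCP2, TERB1 and DAZL were the 3 of 32 matched members with the CTCF core motif (9.38%, against 2.82% of 27025 genes). It lay on the strand opposite to the gene in each of the 3, which is the plus strand of the chromosome. The matches began 96, 112 and 54 bases before the start, at chr2:178407743-178407754, chr8:104509988-104509999 and chr17:50293663-50293674. In the printed SYCP2 sequence the first run of capitals is a MYB family site and the second the CTCF core match, and the run in SYCP1 is a MYB family site. In SYCE1 the capitals are the first 4 letters of a MYB family site that crosses the start. SYCP3 and HSF2BP held none of the 3 motifs. MYB family sites were in 11 members (34.4%, against 25.9% of all genes) and STRA8 sites in 9 (28.1%, against 9.12%). A match is a description of letters, and binding was not measured.

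The first question was in which cells these genes were read. Of the 38 members, 32 had at least 10 counts over the 4 germ cell groups, and 22 of these 32 had their highest mean CPM over the mice in the spermatocyte cluster. The mixed cluster was highest for 5, the round spermatid-like class for 3 and the elongating-marker cluster for 2. Some of these placements rested on Ctcf-cKO 3. ANKRD31 and TERB1 were among the 5, with means of 53.4 and 42.9 CPM. Each mean included 145 CPM from 3 counts in the 1 mixed cluster cell of that mouse. SUN1, placed in the round spermatid-like class, was highest there in Ctcf-cKO 3 alone and highest in the spermatocyte cluster in 3 mice. In single mice the order was less regular, and 14 members were highest in the spermatocyte cluster in at least 3 of the 4 mice. The remaining 6 members, MEI1, MEI4, PRDM9, SPATA22, TERB2 and STRA8, had too few counts to place. Since cells were grouped by other transcripts of the same cells, these differences between groups are given without a test.

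**Figure D1:**
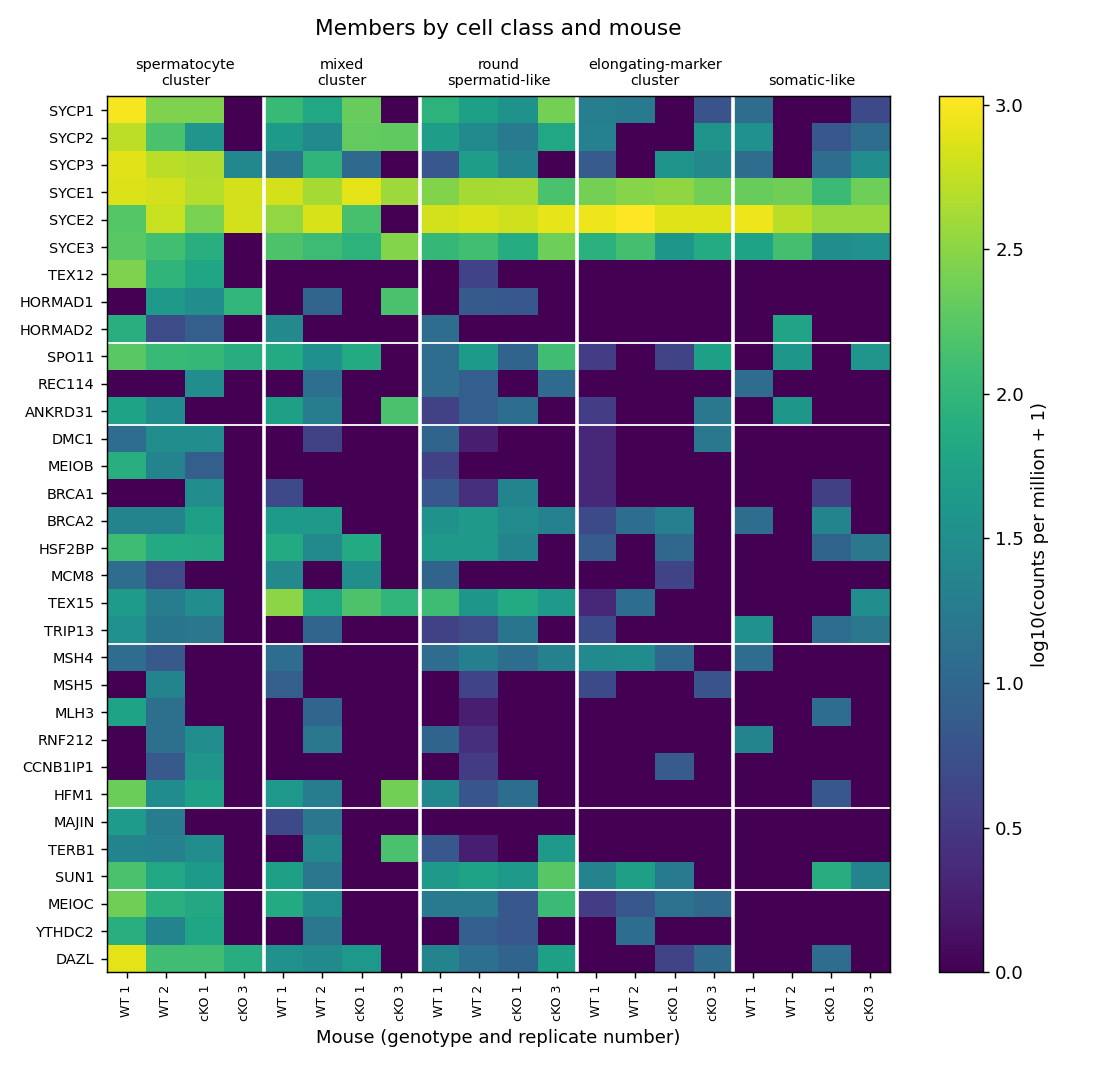
Level of each member (rows, grouped by role from synapsis at the top to meiotic entry at the bottom) in each cell group and mouse (columns), coloured by log10(CPM + 1). SYCP1, SYCP3, TEX12 and DAZL are brightest in the spermatocyte cluster, SYCE1 and SYCE2 are bright in most columns, and the column of Ctcf-cKO 3 in the spermatocyte cluster is dark for most rows.

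SYCP3, a lateral element protein and a standard marker of meiotic chromosome axes, was at 779, 516, 462 and 25.2 CPM in the spermatocyte cluster. In the round spermatid-like class it was at 5.61, 47.4, 22.5 and 0 CPM. The last Ctcf-cKO mouse thus stood apart from the other 3, with 1 count of SYCP3 in 10 cells.

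SYCP1, which forms the transverse filaments, was at 980, 277, 279 and 0 CPM in the spermatocyte cluster and at 113, 64.5, 210 and 0 CPM in the mixed cluster. It remained at 89.8, 52.0, 33.8 and 248 CPM in round spermatid-like cells, where Ctcf-cKO 3 was the highest, with SYCP1 read in 4 of its 10 cells. In the elongating-marker cluster it was between 0 and 18.9 CPM. SYCP2, the partner of SYCP3 in the lateral element, was at 534, 142, 36.7 and 0 CPM in the spermatocyte cluster, with both Ctcf-cKO mice below both WT mice there, and at 43.7, 26.4, 200 and 193 CPM in the mixed cluster. The last of these is 4 counts in the 1 cell of Ctcf-cKO 3, where 3 counts come to 145 CPM and 4 counts may stand for 1 molecule. Both Ctcf-cKO mice thus lay above both WT mice in the mixed cluster, but on 5 cells and 1 cell.

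TEX12, a central element protein, had 80 counts in the spermatocyte cluster, 0 in the mixed cluster, 4 in the round spermatid-like class and 0 in the elongating-marker cluster and the somatic-like class. By mouse it was at 278, 95.1, 58.7 and 0 CPM in the spermatocyte cluster. The 0 of Ctcf-cKO 3 allows up to 75.5 CPM at a floor of 3 counts, a range that holds the value of Ctcf-cKO 1, and the limit would be higher if several counts stand for 1 molecule.

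The other central element genes behaved differently. SYCE1 was at 746, 657, 492 and 679 CPM in the spermatocyte cluster, and still at 249, 302, 339 and 240 CPM in the elongating-marker cluster. The 746 CPM of WT 1 came mostly from 1 cell with 60 counts, while the other cells of that mouse had 1, 2 and 4. SYCE2 was lower in the spermatocyte cluster (167, 593, 264 and 654 CPM) than in the elongating-marker cluster (889, 1067, 761 and 762 CPM) in every mouse. SYCE3 ranged from 0 to 178 CPM in the first and from 38.7 to 137 CPM in the second.

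SYCE1 and SYCE2 were also read outside the germ cell groups. In the somatic-like class SYCE1 was at 211, 232, 114 and 230 CPM and SYCE2 at 887, 521, 359 and 360 CPM. Elongating spermatid markers in that class were at 96734, 159106, 77303 and 97137 CPM, and the part of germ cell RNA was not tested. SYCE1 and SYCE2 supplied 48.7%, 56.6%, 63.2% and 61.7% of all member counts in the libraries, and 84.5%, 83.3%, 87.4% and 80.3% in the elongating-marker cluster. In the spermatocyte cluster their share was 15.4%, 39.1%, 29.9% and 82.8%, and in the mixed cluster 47.3%, 61.9%, 52.2% and 23.5%.

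Shares of cells with a count were compared at equal total counts per cell, which need not be equal numbers of molecules, since entries of 4 made up 11.5% and 11.5% of non-zero entries in WT and 29.97% and 23.1% in Ctcf-cKO. After thinning every cell to 900 counts, 16 of 57 spermatocyte cluster cells had a count of SYCP3 (28.1%, exact 95% interval 17.0 to 41.5%), against 3 of 47 mixed cluster cells (6.38%, 1.34 to 17.5%) and 11 of 157 round spermatid-like cells (7.01%, 3.55 to 12.2%). After thinning the share was 0 of 165 in the elongating-marker cluster, where 9 of 165 cells (5.45%, 2.52 to 10.1%) had a count of SYCP3 at full depth, and 3 of 169 in somatic-like cells (1.78%, 0.368 to 5.10%). These cells are pooled over mice that supplied unequal numbers to each group. By mouse, the thinned SYCP3 share in the spermatocyte cluster was 3 of 4, 10 of 31, 2 of 12 and 1 of 10 cells. All 3 of the mixed cluster cells and all 11 of the round spermatid-like cells with a count came from WT 2. For SYCE2 the thinned shares, pooled in the same way, were 36.8% in the spermatocyte cluster, 43.9% in round spermatid-like cells, 44.8% in the elongating-marker cluster and 20.1% in somatic-like cells. Without thinning, SYCP3 was read in 56.1% of spermatocyte cluster cells and SYCE2 in 40.2% of somatic-like cells. Intervals cover counting error only. Median totals per cell in the spermatocyte cluster were 9711, 13957, 10588 and 3955 counts, and in somatic-like cells 7187, 7982, 4877 and 2746.

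Among the genes of break formation, SPO11, which cuts the DNA, was at 178, 111, 103 and 75.5 CPM in the spermatocyte cluster. In the round spermatid-like class it was at 11.2, 44.3, 8.45 and 124 CPM, so that Ctcf-cKO 3 was again highest there. ANKRD31, which helps to place the break machinery, had 19 counts in the spermatocyte cluster and 23 in the mixed cluster. REC114, MEI1, MEI4 and PRDM9, the last of which sets where breaks fall, had 4, 2, 0 and 1 counts in the spermatocyte cluster.

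Genes of repair and strand exchange were not alike in stage. TEX15 was higher in the mixed cluster (317, 64.5 and 150 CPM) than in the spermatocyte cluster (44.5, 18.2 and 29.4 CPM) in WT 1, WT 2 and Ctcf-cKO 1. In Ctcf-cKO 3, with 2 counts in the 1 cell of the mixed cluster and 0 in the spermatocyte cluster, the order could not be read. HSF2BP, a partner of BRCA2, was at 122, 70.8, 66.0 and 0 CPM in the spermatocyte cluster and at 42.1, 42.7, 22.5 and 0 CPM in round spermatid-like cells. DMC1, the meiotic recombinase, had 20 of its 29 germ cell group counts in the spermatocyte cluster, and MEIOB, which coats single strands, 19 of 21.

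Crossover genes were scarce. HFM1, a helicase needed for crossovers, was at 223, 28.3, 51.4 and 0 CPM in the spermatocyte cluster. MSH4, which stabilises crossover intermediates, had only 4 counts there but 35 in round spermatid-like cells and 29 in the elongating-marker cluster. MSH5, its partner, had 11, 4 and 4 counts in the same groups.

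Of the telomere attachment genes, MAJIN had 13 counts in the spermatocyte cluster, 6 in the mixed cluster and 0 elsewhere, and all 19 came from WT mice. The floor of 3 counts was at 22.01 and 75.5 CPM in the Ctcf-cKO mice in the spermatocyte cluster. In the mixed cluster it was at 29.96 and 145 CPM in these mice. Against so few WT counts, the absence of MAJIN in these Ctcf-cKO cells could not be read. SUN1, the envelope protein that links telomeres to the cytoskeleton, was found in every group. DAZL, an RNA-binding protein of germ cells that primes them for meiosis, was at 790, 123, 125 and 75.5 CPM in the spermatocyte cluster, above its level in the other germ cell groups in WT 1, WT 2 and Ctcf-cKO 1. In Ctcf-cKO 3 the value is 3 counts, equal to the floor, and the order could not be read. In the somatic-like class it was between 0 and 11.1 CPM.

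Single cells of the spermatocyte cluster differed widely. In WT 1, 3 of the 4 cells had 12 to 19 of the members detected and summed levels of 17755, 13824 and 10715 CPM, at totals of 9800, 9621 and 6906 counts. The other cell of WT 1 had 12 members and 2362 CPM at a total of 63501 counts. The range of the first 3 was reached by 1 cell of WT 2, with 21 members and 12379 CPM. In Ctcf-cKO 1 the highest of 12 cells had 6038 CPM with 10 members, and in Ctcf-cKO 3 the highest of 10 cells had 3720 CPM with 3 members.

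Of the 57 cells, 21 had a count of SYCP1, 32 of SYCP3 and 18 of both. All 4 cells of WT 1 had 21 to 23 counts of SYCP1 and 10 to 24 of SYCP3. In WT 2, 11 of 31 cells had SYCP1 and 20 had SYCP3, and in Ctcf-cKO 1 6 and 7 of 12 did. None of the 10 cells of Ctcf-cKO 3 had SYCP1. Outside this cluster, cells left unnamed reached 9319, 10166, 12947 and 6376 CPM in the 4 mice, with at most 14, 7, 5 and 2 members detected in a cell.

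**Figure D2:**
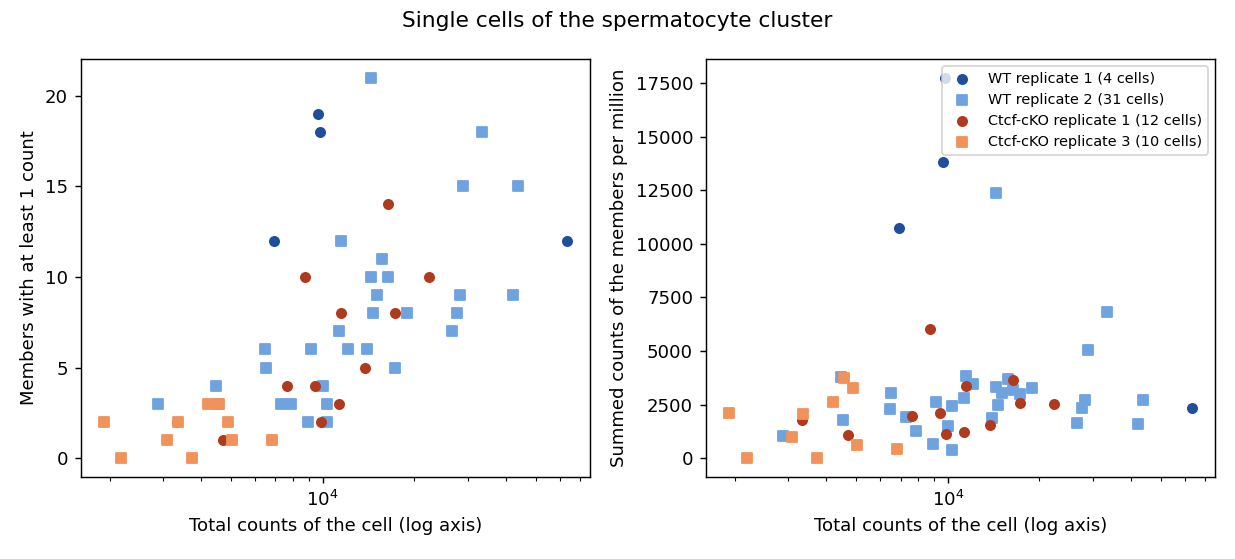
Each point is 1 of the 57 cells of the spermatocyte cluster, coloured by mouse. The left panel plots the number of members with at least 1 count and the right panel the summed CPM of the members, both against the total counts of the cell on a log axis. The cells of Ctcf-cKO 3 lie at the shallow end with 0 to 3 members, and the 4 highest points of the right panel are WT cells.

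The comparison of genotypes was first made on all barcodes of a library, as 1 sum per mouse. Counts of these genes were lower in the Ctcf-cKO libraries: of 32 members tested, 31 had a negative log2 fold change and 6 passed the threshold, all lower (edgeR quasi-likelihood test, adjusted p under 0.05). Among all 14552 genes tested 10.1% were called lower and 18.4% higher, and 51.6% had a negative value. The median log2 fold change was -0.94 over the members and -0.041 over all genes. Both Ctcf-cKO mice lay below both WT mice for 23 of the 32 members, against 33.4% of all genes, and above both for 0, against 33.8%. In sums over all barcodes, fewer cells of a type and less RNA per cell cannot be told apart. The other 6 members, the same as those too scarce to place by stage, did not pass the filter on low counts.

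**Figure D3:**
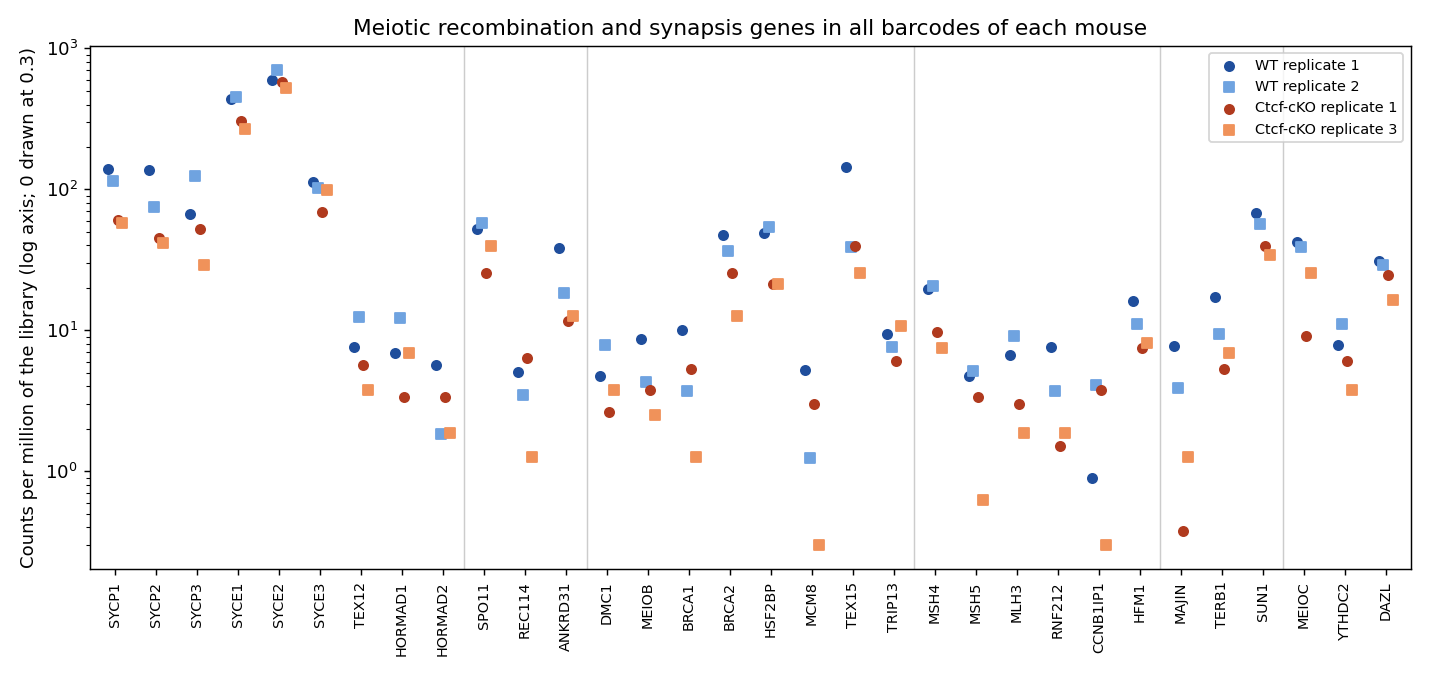
CPM of the 32 tested members in all barcodes of each mouse, on a log axis, with vertical lines between roles (0 is drawn at 0.3). For SYCP1, SYCP2, SYCP3, SYCE1, HSF2BP and SUN1 both Ctcf-cKO points lie below both WT points.

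The synaptonemal complex held 4 of the 6 called members. SYCP1 (chr3:102818499-102936100, GENCODE release M21, GRCm38) was at 141 and 116 CPM in WT and at 60.7 and 57.7 CPM in Ctcf-cKO. The groups did not overlap, and its log2 fold change was -1.04 (SE 0.23, adjusted p = 0.00625). SYCP2 (chr2:178345293-178407685) was at 138 and 75.1 CPM against 45.2 and 41.4 CPM, with a log2 fold change of -1.22 (SE 0.30, adjusted p = 0.0105). SYCP3 (chr10:88459569-88473236) was at 67.2 and 125 CPM against 52.4 and 28.9 CPM, and fell by 1.16 on the log2 scale (SE 0.36, adjusted p = 0.0314).

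SYCE1 (chr7:140777229-140787852) was at 441 and 451 CPM in WT and at 304 and 267 CPM in Ctcf-cKO. Its change was the smallest of the called members, -0.58 (SE 0.18, adjusted p = 0.0336). SYCE2 was at 594 and 707 CPM against 573 and 524 CPM, a smaller step than the spread between the WT mice, with a log2 fold change of -0.18 (SE 0.18, adjusted p = 0.487). SYCE3 (113 and 103 CPM against 68.6 and 99.8 CPM) did not pass the test either (-0.31, SE 0.25, adjusted p = 0.38). TEX12, HORMAD1 and HORMAD2, the last 2 being axis proteins that mark unsynapsed chromosomes, had 59 to 132 counts in all libraries together and were not called.

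The other 2 called members act in repair. HSF2BP (chr17:31944769-32036349) was at 49.4 and 53.9 CPM in WT and at 21.5 and 21.3 CPM in Ctcf-cKO, with mice of a genotype close to each other (-1.20, SE 0.31, adjusted p = 0.014). TEX15 (chr8:33516738-33585582) was at 144 and 39.3 CPM against 39.96 and 25.7 CPM. WT 2 and Ctcf-cKO 1 were alike, so its groups overlapped and its value of -1.38 (SE 0.47, adjusted p = 0.0463) rested on WT 1: without that mouse it was -0.23. BRCA2, which loads the recombinase on single strands, lay at 47.3 and 36.6 CPM against 25.6 and 12.6 CPM and just missed the threshold (-1.03, SE 0.38, adjusted p = 0.062). TRIP13, an ATPase that strips axis proteins at synapsis, was the 1 member above 0 (0.0058, SE 0.58), and its sign changed with the settings.

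No gene of break formation, crossing over, telomere attachment or meiotic entry was called. These roles had 3, 6, 3 and 3 genes tested, and 10.1% of all genes were called lower. SPO11 was at 52.7 and 57.8 CPM in WT and 25.6 and 39.5 CPM in Ctcf-cKO (-0.72, SE 0.31, adjusted p = 0.109). ANKRD31 was at 38.5 and 18.3 CPM against 11.7 and 12.6 CPM (-1.16, SE 0.44, adjusted p = 0.0672). For both, the 2 Ctcf-cKO mice lay below the 2 WT mice.

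All 6 crossover genes had negative values, with a median of -1.12. MSH4 was at 19.7 and 20.8 CPM in WT and at 9.80 and 7.53 CPM in Ctcf-cKO (-1.14, SE 0.44, adjusted p = 0.0722). MLH3, a subunit of the nuclease that resolves crossovers, was at 6.72 and 9.05 CPM against 3.02 and 1.88 CPM (-1.57, SE 0.72, adjusted p = 0.125). CCNB1IP1 had 6, 20, 10 and 0 counts, too few to place the genotypes.

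MAJIN, which anchors telomeres in the inner nuclear membrane, had the largest negative value of the members, from 52 and 19 counts in WT and 1 and 2 counts in Ctcf-cKO (-2.88, SE 1.02, adjusted p = 0.0524). SUN1 was at 67.7 and 57.0 CPM against 39.96 and 34.5 CPM (-0.67, SE 0.28, adjusted p = 0.0929). MEIOC, which acts with YTHDC2 on transcripts at meiotic entry, was at 42.7 and 39.1 CPM against 9.05 and 25.7 CPM (-1.22, SE 0.44, adjusted p = 0.0545). DAZL was at 31.0 and 29.2 CPM against 24.9 and 16.3 CPM (-0.46, SE 0.36, adjusted p = 0.367). STRA8, whose promoter drives the Cre, had 4, 6, 0 and 3 counts and was not tested.

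**Figure D4:**
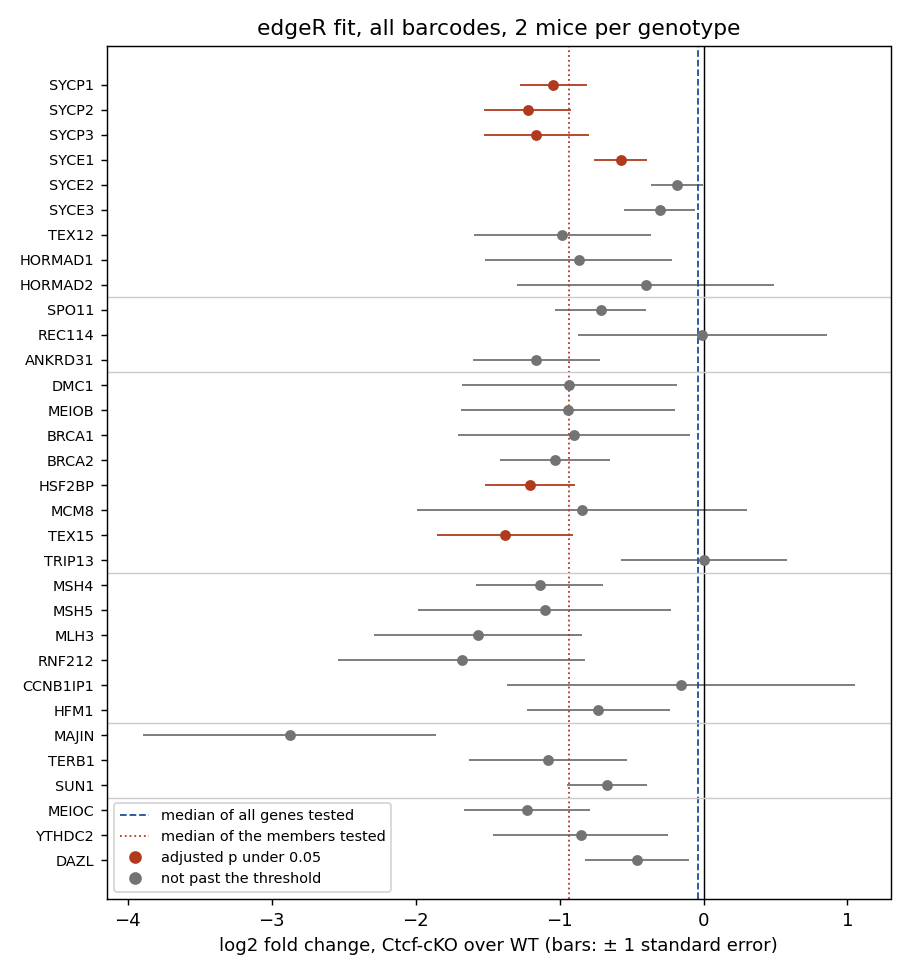
edgeR log2 fold change of Ctcf-cKO over WT for the 32 tested members in all barcodes, with bars of 1 standard error and horizontal lines between roles. Of the 32 points 31 lie left of 0, the 6 called members are in red, and the dotted median of the members (-0.94) lies left of the dashed median of all genes (-0.041).

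Without Ctcf-cKO 1 or without Ctcf-cKO 3 each of these 6 members kept its sign. Such a fit holds 1 Ctcf-cKO mouse, and only the WT pair gives the spread. Whether the 6 calls hold without either Ctcf-cKO mouse could therefore not be read. Of the 6, SYCP1 was also called in kept cells alone, a setting chosen after seeing the data, in which DAZL was called as well.

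Other gene lists were counted in the same fit, and they went both ways. The 25 spermatocyte markers had 17 genes called lower and 0 higher (median -1.03), and their sum was 8315, 8266, 4952 and 4914 CPM. The 20 round spermatid markers had 16 called lower and 0 higher (median -1.02), with sums of 6416, 6205, 4158 and 4006 CPM. Of 9 spermatogonia markers tested 1 was called lower and 4 higher (median 0.40), but the sum of the list was lower in Ctcf-cKO (636, 673, 431 and 448 CPM). Of 15 elongating spermatid markers 0 were called lower and 1 higher, with 14 values above 0 (median 0.27). The ratio of member counts to spermatocyte marker counts was 0.255 and 0.248 in WT and 0.280 and 0.261 in Ctcf-cKO, and without SYCE1 and SYCE2 it was 0.131, 0.108, 0.103 and 0.1001. Leydig markers were at 440 and 172 CPM in WT and 4816 and 4269 CPM in Ctcf-cKO, with 11 of 11 tested called higher. Sertoli markers (212 and 423 against 3268 and 3441 CPM) rose in 12 of 12 tested, macrophage markers (134 and 337 against 3753 and 3981 CPM) in 12 of 14 and red blood cell markers (198 and 18.5 against 2139 and 1404 CPM) in 4 of 4. Their part in the lower member levels was not tested.

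A second list of 38 meiotic genes, 28 of them tested, had 8 called lower and 0 higher, with a median of -0.79. The 8 included SMC1B and STAG3, which are meiotic cohesins, and PSMC3IP, CNTD1, ATR, RPA1 and SPDYA. CNTD1, a cyclin-like protein of crossover maturation, had a log2 fold change of -1.56 (SE 0.34, adjusted p = 0.00607), and STAG3 one of -1.08 (SE 0.24, adjusted p = 0.00587).

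The second comparison was made within classes of cells. In the spermatocyte-like class 15 members were tested and 0 were called, in a comparison where edgeR called 0 of 5591 genes (0.0%) and DESeq2 called 63. In simulated data of the same size edgeR called almost none of the planted changes in the spermatocyte-like, round spermatid-like and somatic-like classes, so that 0 calls there says nothing about whether the members differ. Without adjustment 5.22% of all genes and 0 of the 15 members fell under 0.05, and DESeq2 also called 0 of the members. The class held 60415 counts in Ctcf-cKO 3, the shallowest mouse.

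All 15 members had a negative value in this class, against 57.5% of the genes tested there, with a median of -0.83 against -0.13. Both Ctcf-cKO mice lay below both WT mice for 5 of the 15 in edgeR's normalised values, against 20.4% of all genes. Other lists moved there too: 19 of 23 spermatocyte markers and 16 of 19 round spermatid markers had negative values (medians -0.37 and -0.70). Leydig markers were at 132 and 168 CPM in WT and at 5139 and 3509 CPM in Ctcf-cKO, with 9 of 9 values above 0. By mouse, 8, 33, 5 and 1 cells of the class came from the mixed cluster and 4, 31, 12 and 10 from the spermatocyte cluster. The part of these differences in the member values was not tested. SYCP3 was at 203, 344, 271 and 16.6 CPM, so that Ctcf-cKO 1 lay between the WT mice (-0.83, SE 0.93, adjusted p = 0.999). SYCP1 was at 327, 190, 250 and 0 CPM in the same order (-0.83, SE 1.05, adjusted p = 0.999). SYCP2 (165, 94.6, 106 and 66.2 CPM) was likewise spread across the genotypes (-0.56, SE 0.64, adjusted p = 0.999).

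Both meiotic entry genes tested there were among these 5. MEIOC was at 110 and 61.0 CPM in WT and 38.1 and 0 CPM in Ctcf-cKO (-1.73, SE 1.06, adjusted p = 0.999). DAZL was at 220, 83.8, 88.8 and 49.7 CPM, which overlap before normalisation (-1.04, SE 0.71, adjusted p = 0.999). Without Ctcf-cKO 1 the median of the members in this class was -1.90, and without Ctcf-cKO 3 it was -0.61. Of the other meiotic genes 16 were tested in this class and 8 had negative values. M1AP had 16 and 67 counts in WT and 0 in both Ctcf-cKO mice (edgeR adjusted p = 0.61), and alone of them fell under 0.05 without adjustment.

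In round spermatid-like cells 10 members were tested, 0 were called (0.0% of 5178 genes) and 0 fell under 0.05 without adjustment (3.71% of all genes did). Values went both ways, 6 negative (52.8% of all genes were) and 4 positive, with a median of -0.072, in a class where all 8 cells of WT 1 came from the second of its clusters and 8 of the 10 cells of Ctcf-cKO 3 from the first. In edgeR's normalised values Ctcf-cKO 3 was the highest mouse for SYCP1, SYCP2, SYCE3, SPO11 and SUN1, with 6 to 24 counts of each. These values rest on few cells: 1 of the 10 cells held 126 of the 203 member counts of that mouse, and SYCP2 was read in 1 cell and SYCP1 in 4.

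In the elongating-marker cluster SYCE1, SYCE2 and SYCE3 were the only members tested and 0 of the 3 were called, where 464 of 3071 genes were (15.1%), and 0 fell under 0.05 without adjustment (26.3% of all genes). SYCE2 and SYCE3 had both Ctcf-cKO mice below both WT mice (23.1% of all genes did), and for SYCE1 the mice overlapped. In the somatic-like class SYCE1 and SYCE2 were tested, and SYCE2 had both Ctcf-cKO mice below both WT mice, as did 17.4% of all genes. Neither was called (0.0% of 3857 genes) or fell under 0.05 without adjustment (8.35% of all genes).

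**Figure D5:**
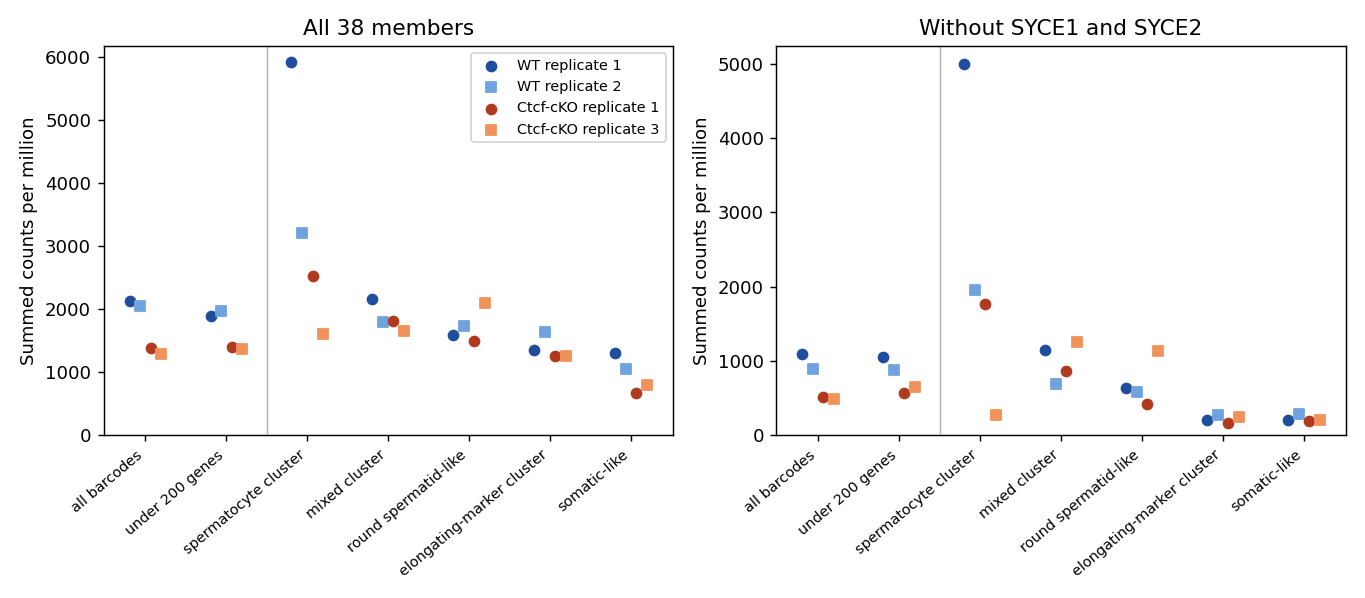
Summed CPM of the members by mouse in all barcodes, in barcodes with under 200 genes and in each cell group, with SYCE1 and SYCE2 (left) and without them (right). In all barcodes both Ctcf-cKO mice lie below both WT mice; in the spermatocyte cluster WT 1 stands far above the rest, and in the round spermatid-like class Ctcf-cKO 3 is the highest.

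The summed level of all members followed from these values. In all barcodes it was 2122 and 2046 CPM in WT and 1388 and 1283 CPM in Ctcf-cKO, a ratio of means of 0.641. Barcodes with under 200 genes, which were not kept as cells, gave 1886 and 1968 CPM against 1392 and 1370 CPM. They carried 1.39%, 11.7%, 40.9% and 50.1% of all member counts, and kept cells 27.0%, 53.2%, 56.1% and 48.7%. The remaining counts, most of those in WT 1, lay in other barcodes that were not kept. The limit of 200 genes was the same in every library though depth differed.

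In the spermatocyte cluster the sum was 5911, 3199, 2524 and 1611 CPM, with the groups apart and WT 1 resting on 4 cells. Of these, 1 cell at 2362 CPM held 63501 of the 89828 counts, and the others were at 17755, 13824 and 10715 CPM. Without SYCE1 and SYCE2 the sum was 4998, 1950, 1768 and 277 CPM, so that WT 2 and Ctcf-cKO 1 were close. In the mixed cluster (2165, 1792, 1817 and 1644 CPM) and in round spermatid-like cells (1594, 1733, 1489 and 2098 CPM) the genotypes overlapped. In the elongating-marker cluster it was 1347 and 1643 CPM against 1258 and 1248 CPM, and in somatic-like cells 1308 and 1042 CPM against 668 and 797 CPM, both with the groups apart. Without SYCE1 and SYCE2 the elongating-marker cluster gave 209 and 274 CPM against 158 and 246 CPM, which overlap, and somatic-like cells 211 and 289 CPM against 195 and 208 CPM. In the elongating-marker cluster Leydig markers were at 13.9 and 17.1 CPM in WT and at 2019 and 2123 CPM in Ctcf-cKO, and red blood cell markers at 2.52 and 0 CPM against 8280 and 1448 CPM. The somatic-like class joined clusters with Leydig (7, 2, 52 and 53 cells), fibroblast (3, 2, 8 and 13) and macrophage markers (0, 2, 3 and 24), so its make-up differed by mouse. In somatic-like cells round spermatid markers were at 2693 and 3338 CPM against 2206 and 1972 CPM, and Sertoli markers at 4411 and 907 CPM against 6339 and 5030 CPM. Leydig markers there were at 13154 and 193 CPM against 16549 and 11261 CPM, and macrophage markers at 1939 and 10979 CPM against 13200 and 12036 CPM. Their part in the sums was not tested.

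Sums by role in all barcodes are given as a description, and no role was tested as a group. The mean sum of the repair genes was 217 CPM in WT and 92.8 CPM in Ctcf-cKO, that of the crossover genes 54.9 and 24.6 CPM, and that of the break genes 90.1 and 52.6 CPM. Telomere attachment genes summed to 82.7 and 47.8 CPM, meiotic entry genes to 81.4 and 43.8 CPM, and synaptonemal complex and axis genes to 1558 and 1074 CPM. Of the 6 roles, 4 had 0 members called. In these, 3 break, 6 crossover, 3 telomere attachment and 3 meiotic entry genes were tested. With 10.1% of all genes called lower, 0 calls among so few says little about a role.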

How the data were processed

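Testis cells of 2 WT and 2 Ctcf-cKO mice were measured as single cell 3′ libraries, 1 per mouse. The authors deposited 1 table of raw counts per gene and barcode for each mouse, aligned to GRCm38 per the labels, and nothing was normalized before deposit. The members and gene lists were chosen with earlier results of these data known. Barcodes with at least 200 and at most 7000 genes, up to 10% mitochondrial counts and over 3 times the median total of barcodes ranked 301 to 1000 were kept. Cells were clustered with Seurat 5.3.0 (2000 variable genes, 15 components, resolution 0.9, Harmony by mouse). Clusters were named by the list with the largest share of markers higher, at least 3. A name was withheld where another list, other than the red blood cell list, had more genes among the leading genes of the cluster. By this rule a cluster of 105 cells with 9 of 15 elongating spermatid markers higher was left unnamed. Its leading genes included the Sertoli markers AARD and DEFB19. The elongating-marker cluster, led by HBB-BS, kept its name because the red blood cell list did not count. Doublets were scored with Scrublet (2, 9, 5 and 13 cells) and kept. Counts were summed per mouse and class (at least 5 cells per mouse) and tested with edgeR 4.0.16 (quasi-likelihood, TMM, low genes filtered, Benjamini-Hochberg over all genes tested), after a test on simulated data, in which most of the planted changes were recovered in all barcodes and in the elongating-marker cluster and almost none in the other classes. CPM are counts relative to the total of the class, on a common scale. The standard error (SE) was derived from the test, as the absolute log2 fold change over the square root of its F statistic. With 2 mice per genotype, p-values rest on the spread of 4 mice. Any member with counts could be named, and other genes as called genes, markers or the target. Library totals ran from 1593546 to 6701235 counts, and a count of 0 was read against 3 counts. Alternatives were DESeq2 1.42.0, library totals, other filters, mice left out, other clusterings, free RNA subtracted, and 3 chosen after seeing the data: counts divided by 4 and rounded up, the spermatocyte cluster alone, and kept cells alone. Gene positions are from GENCODE release M21.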

Additional observations from a re-analysis of the deposited data

How the results depend on the processing

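No paired analysis was possible because the genotypes share only replicate number 1. In all barcodes 6 members were called lower. The count was 10 with no filter on low genes and 2 in kept cells alone, and it ranged from 1 (without either Ctcf-cKO mouse) to 8 with each mouse left out. The median log2 fold change ranged from -1.23 to -0.74 with a mouse left out and the log2 ratio of summed CPM from -0.70 to -0.59. SYCE2 changed sign with counts divided by 4 and rounded up (0.070). TRIP13 changed sign with library totals alone (-0.060), with no filter (-0.13) and with a mouse left out (from -0.44 without Ctcf-cKO 3 to 0.37 without Ctcf-cKO 1, and -0.14 without WT 2).

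In the spermatocyte-like class, where planted changes in simulated data were not called, the median ranged from -1.90 to -0.61 with a mouse left out, and the spermatocyte cluster alone, where WT 1 had 4 cells and the minimum of 5 was not applied, gave -1.47 and a log2 ratio of summed CPM of -1.11. With that minimum applied, the following settings gave no value: members kept among the variable genes, no batch correction, resolution 0.5, doublets left out, and 5 times the plateau. In the elongating-marker cluster the median was 0.054 with divided counts, -0.87 with members kept among the variable genes and -0.84 at resolution 0.5, and the log2 ratio was 0.035 without batch correction and -0.40 at resolution 1.3. In the somatic-like class, with 2 members tested, the median was -0.15 with no filter, -0.26 with at least 10 counts in every library, -0.92 with members kept, 0.70 without batch correction, -2.07 at resolution 0.5 and from -0.80 to -0.16 with a mouse left out. There the log2 ratio was -1.03 without doublets, -1.03 with members kept, -0.35 without batch correction, -1.24 at resolution 0.5 and -1.02 at resolution 1.3, 1 member was called without WT 2 (0 to 1 over the mice left out), and 5 times the plateau gave no value. The cause of these shifts was not tested. Depth limits the classes too: Ctcf-cKO 3 had 39737 counts in the spermatocyte cluster.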
